A study of Canis lupus familiaris with 4 samples.

Results

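The co-culture effect averaged over both canine mammary cancer lines was described here as 1 log2 ratio per probe, co-culture with macrophages over single culture, on all 4 arrays of the series. The deposited ratio of each array was turned by its dye labels, the 2 arrays of each line were averaged, and the mean of both line averages was taken. All 4 of 4 arrays entered, 2 of P114 and 2 of CMT-U27. Attention was given to probes whose ratio had the same sign on every array, a choice that uses the same values, so the counts and ratios of such probes are descriptions.

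P114 and CMT-U27 are established dog mammary carcinoma lines. Cells positive for Sca1, EpCAM and CD44, a rare fraction called stem-like in the labels, were sorted from each line. On each 2-colour array, RNA of such cells kept with tumour-associated macrophages was hybridised against RNA of such cells of the same line kept alone, both labelled day 3. Co-culture RNA carried Cy3 on P114 replicate 1 and CMT-U27 replicate 2, and Cy5 on P114 replicate 2 and CMT-U27 replicate 1, so that each line was measured in both dye orientations. The labels name biological replicates without saying whether cultures or RNA extracts were separate, so the spread between arrays may be technical. They give neither the source of the macrophages nor how these were parted from the stem-like cells before RNA was taken. Replicate numbers are only names. In such bulk RNA, fewer cells of a type and less RNA per cell cannot be told apart.

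Macrophages in tumours secrete cytokines that act on neighbouring cancer cells, and many of these signals converge on NF-kB, a family of dimeric transcription factors held in the cytoplasm by inhibitors such as NFKBIA. Released NF-kB switches on chemokines, survival factors and its own inhibitor, so that transcripts of NFKBIA and NFKB2 serve as readouts of the pathway. Interferons act through other factors, among them IRF1, and raise the machinery that loads peptides on MHC class I molecules for display to T cells.

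The arrays differed in signal and correlated little with one another. On P114 replicate 1, 89.4% of Cy3 and 91.7% of Cy5 signals were well above background, against 57.9% to 65.7% on the other arrays. After a filter that kept probes well above background in at least 1 channel of every array, 25654 of 43603 gene probes were tested. Over these probes the turned log2 ratios of the 2 P114 arrays correlated at Pearson's r = -0.13, and those of the 2 CMT-U27 arrays at -0.216. The pair of arrays with co-culture in Cy5, one of each line, stood at r = 0.224, and the pair with co-culture in Cy3 at 0.11. The line averages correlated at r = 0.0913 (0.15 by Spearman's rank correlation), with 25654 probes as points that share arrays and brightness. All 4 arrays lay on 1 slide and were read in 2 scans, P114 in one and CMT-U27 in the other, so scan and line cannot be told apart.

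The part of the ratios shared by both lines was near the size of the line difference and of the remainder, and smaller than the dye part. After a split into orthogonal parts, the root mean square was 0.170 for the shared part, 0.155 for the line difference, 0.212 for the dye and 0.172 for the remainder, on the log2 scale. With the probes cut into 5 classes of equal number by brightness, the shared part shrank from 0.230 in the dimmest to 0.104 in the brightest class, and the other 3 parts shrank too.

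**Figure D1:**
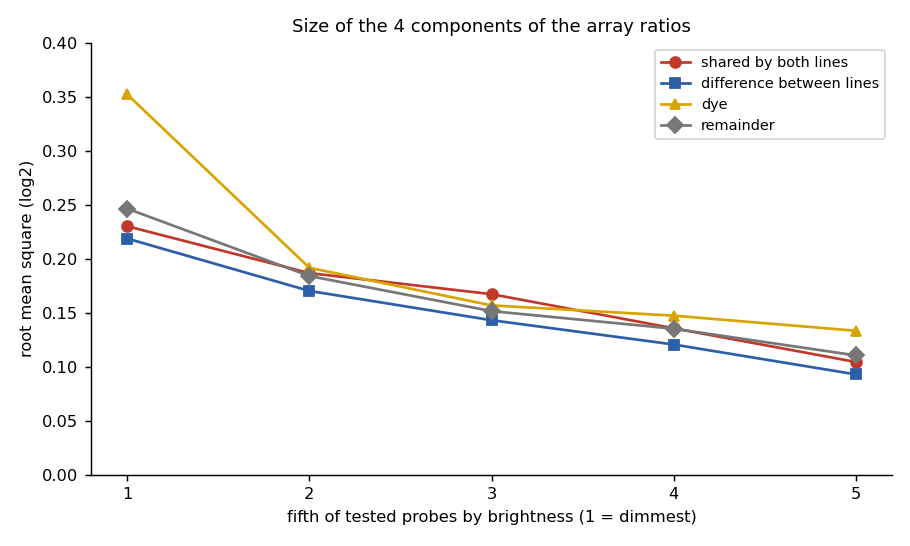
Root mean square of each part of the 4 log2 ratios (shared by both lines, line difference, dye, remainder; y axis, log2 units) in 5 classes of probes from dim to bright (x axis). The dye part is the largest in 4 of the 5 classes, and the shared part goes from 0.230 in the dimmest class to 0.104 in the brightest.

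No probe passed the test of a shared effect. In limma's moderated test with a coefficient per line and a dye term, 0 of 25654 probes (0%) had a Benjamini-Hochberg adjusted p under 0.05 for the mean of both lines, the smallest being 0.512. At an unadjusted p under 0.05 there were 648 higher probes (2.53%) and 308 lower probes (1.2%), together 956. Leaving out 1 array, with no dye term, gave 0 probes without P114 replicate 1, 25 without P114 replicate 2, 35 without CMT-U27 replicate 1 and 4 without CMT-U27 replicate 2. Each of these fits leaves 1 line with a single dye orientation, so that dye and co-culture cannot be told apart in that line. The number of arrays limits the precision, and 4 arrays of the same sign allow no two-sided sign p below 0.125.

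Counted by sign alone, co-culture was higher on all 4 arrays at 1799 probes (7.01%) and lower at 1151 (4.49%). These counts stood beside 1143 probes higher on both P114 arrays and lower on both CMT-U27 arrays, and 880 probes the other way round. Where the smallest ratio of the 4 was beyond 0.3, 21 probes were higher and 8 lower, against 5 and 9 opposed between the lines. With each gene shown by its brightest tested probe, 730 of 9835 genes were higher on all arrays (7.42%) and 474 were lower (4.82%), and the median over all genes was 0.01. Directions are relative to each array's own normalisation. With normexp background correction and median centring in its place, the median of all tested probes stood at 0.51, 16046 probes passed the adjusted test, 9460 probes (36.9%) were higher on all 4 arrays, and 25 of 94 named genes turned sign.

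**Figure D2:**
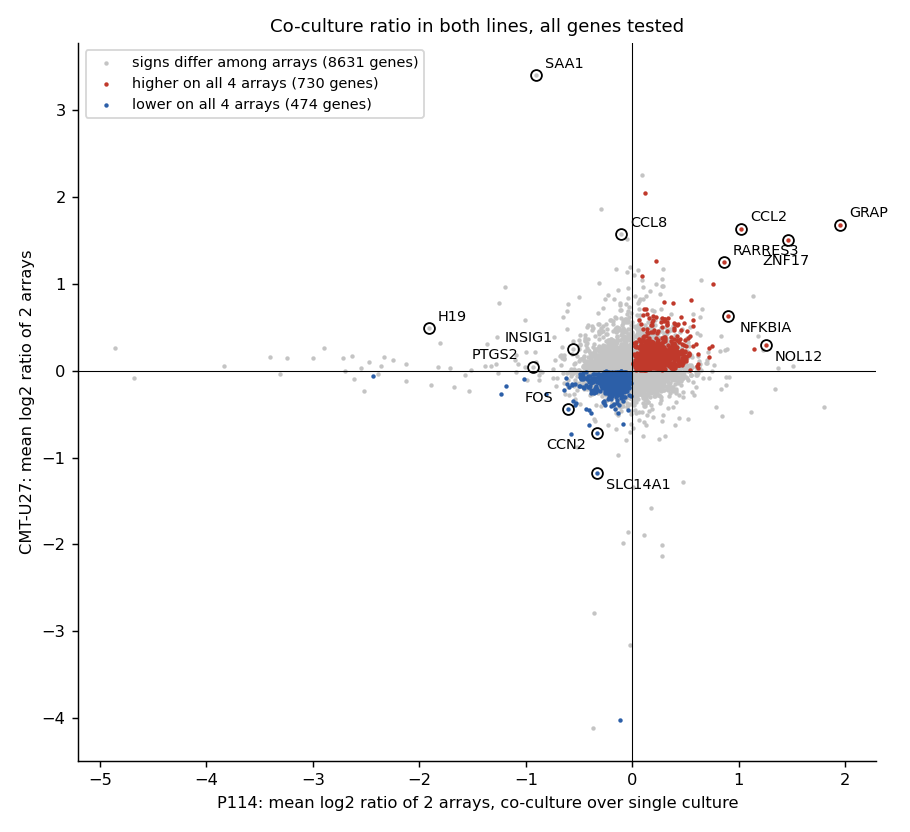
Mean log2 ratio of co-culture over single culture in P114 (x axis) and CMT-U27 (y axis) for 9835 genes, 1 point per gene, with the genes of the same sign on all 4 arrays in colour. The cloud has little slope (r = 0.0913 over all tested probes), and 730 higher and 474 lower genes share a sign on every array.

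Among the genes ranked by their smallest ratio, GRAP, CCL2 and NFKBIA came first on the higher side. CCL2, the chemokine that draws monocytes to tissue, stood at 0.77 and 1.26 on the P114 arrays and at 1.59 and 1.68 on the CMT-U27 arrays. Every array had more CCL2 in co-culture, and the CMT-U27 arrays lay above the P114 arrays. The mean was 1.33 ± 0.118 (SE), or 2.51-fold, with a limma Benjamini-Hochberg adjusted p of 0.561. Here and below, SE is the moderated standard error of the limma fit. It draws on all tested probes and is not the spread of the 4 readings. The tested CCL2 probe lies at chr9:39008191-39008250 on the minus strand of CanFam3.1. A dim second probe, drawn from an expressed sequence tag on the opposite strand (chr9:39009060-39009866), was not tested and read -0.39, 0.72, 1.61 and 1.51, so that P114 replicate 1 went the other way.

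NFKBIA, the inhibitor that retains NF-kB in the cytoplasm and is itself an NF-kB target, was read by separate probes that gave like values. The brighter, at chr8:14101519-14101578 on the minus strand, stood at 0.94 and 0.87 in P114 and at 0.71 and 0.55 in CMT-U27. The other, at chr8:14103181-14103240, stood at 0.65, 1.1, 0.78 and 0.70. All 8 readings were on the co-culture side, and the lines overlapped on the other probe but not on the brighter one. The mean of the brighter probe was 0.77 ± 0.0997 (SE), 1.70-fold, which missed the threshold (limma, Benjamini-Hochberg adjusted p = 1.00). The first 30 bases of these probes and of both CCL2 probes, as the array files give them from 5′ to 3′, are shown because the NFKBIA probes read distinct stretches of its transcript and the CCL2 probes opposite strands:

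NFKBIA, brighter probe: tacatttagcttctatccatggctatttgg

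NFKBIA, other probe: tccatgaaggacgaggagtacgagcagctg

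CCL2, tested probe: gggatggtgtgagggtccttgcaaggatca

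CCL2, untested probe: ttcttattggtgagtgtatagcagcaggtg

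GRAP, an adaptor protein related to GRB2, had the largest mean among the named genes. It stood at 1.44 and 2.45 in P114 and at 1.84 and 1.53 in CMT-U27, with both lines in the same range. The mean of 1.82 ± 0.125 (SE) is 3.52-fold (limma, Benjamini-Hochberg adjusted p = 0.512). With normexp and loess the same probe, at chr5:41037599-41037658, gave 1.05, 2.08, 0.22 and 0.18, with a mean of 0.88. The CMT-U27 readings then lay well below those of P114. Its single-culture signal was well above background on 1 of 2 CMT-U27 arrays. GRAP had 1 probe.

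PLAT, tissue plasminogen activator, which cleaves plasminogen to plasmin, had nearly even ratios. Its brighter probe stood at 0.34, 0.39, 0.37 and 0.41 and the other at 0.32, 0.48, 0.41 and 0.37. The mean of 0.38 is 1.30-fold (SE 0.0971, limma, Benjamini-Hochberg adjusted p = 1.00). Both probes lie on the plus strand of chr16, from 23495222 and 23495224, and share 58 of 60 bases, so they are near repeats of 1 measurement. NOL12, a nucleolar RNA-binding protein, is the contrasting case. Its brighter probe read 0.85, 1.65, 0.31 and 0.28 and the other 0.30, 0.18, 0.02 and 0.17, although 41 of 60 bases are shared. Every reading was above 0, but the sizes differed most where the ratios were largest, in P114. The opening 30 bases show the overlap, with capitals for the run that the gene's other probe holds anywhere in its 60 bases:

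PLAT, other probe: caGGTATATATACCAAGGTTACTAATTACC

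PLAT, brighter probe: GGTATATATACCAAGGTTACTAATTACCTA

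NOL12, brighter probe: ACATAGTCGCAAGAAGACCAAGAGGAAACA

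NOL12, other probe: tcacagcatcactgcacgcACATAGTCGCA

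The remaining higher genes had varied functions. MAP3K8, a kinase that links inflammatory receptors to ERK, stood at 0.58, 0.57, 0.32 and 0.71. RARRES3, a retinoid-inducible acyltransferase, stood at 0.50, 1.22, 1.39 and 1.11, but its single-culture signal was well above background on 1 of 2 arrays of each line. TNFRSF14, the receptor of the ligand LIGHT, read 0.44, 1.08, 0.93 and 1.07. Its other tested probe read -0.06, -0.25, 0.06 and -0.08, so the TNFRSF14 ratio rests on 1 of its probes. ZNF17, a zinc finger gene, read 0.93 and 1.99 in P114. In CMT-U27 the single-culture signal of ZNF17 was not well above background on either array. Co-culture was at least 1.03-fold higher there. The bound is the measured log2 level of the dim channel itself, after normexp, loess and quantile normalisation.

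ARHGAP30, a GTPase-activating protein, stood at 0.64, 0.45, 1.35 and 0.28, with each culture well above background on 1 of 2 CMT-U27 arrays. MTMR4, a lipid phosphatase of endosomes, stood at 0.55, 0.37, 0.28 and 0.34, and 1 of its 3 tested probes had the same sign throughout. SPSB3, a SOCS box protein, had ratios between 0.28 and 0.34. EPS15L1, an endocytic adaptor, had the last place with a smallest ratio of 0.2737, just ahead of MAD1L1 at 0.2649, which was left out. C20H19orf66 read 0.39, 0.65, 0.47 and 0.27 and CCDC163 read 0.59, 0.33, 0.65 and 0.29. With normexp and loess all 15 higher genes kept a mean above 0, but 10 of them shrank by over 1.5 times. Those 10 were dim, with a median brightness of 6.13 (mean log2 processed signal of both channels) against 10.0 for the other 5. Normexp here added an offset of 50 to both channels, which by itself draws the ratios of dim probes towards 0. RARRES3 went to 0.12, MAP3K8 to 0.07, CCDC163 to 0.07 and SPSB3 to 0.07, while NFKBIA stayed at 0.72, CCL2 at 1.03 and PLAT at 0.27.

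**Figure D3:**
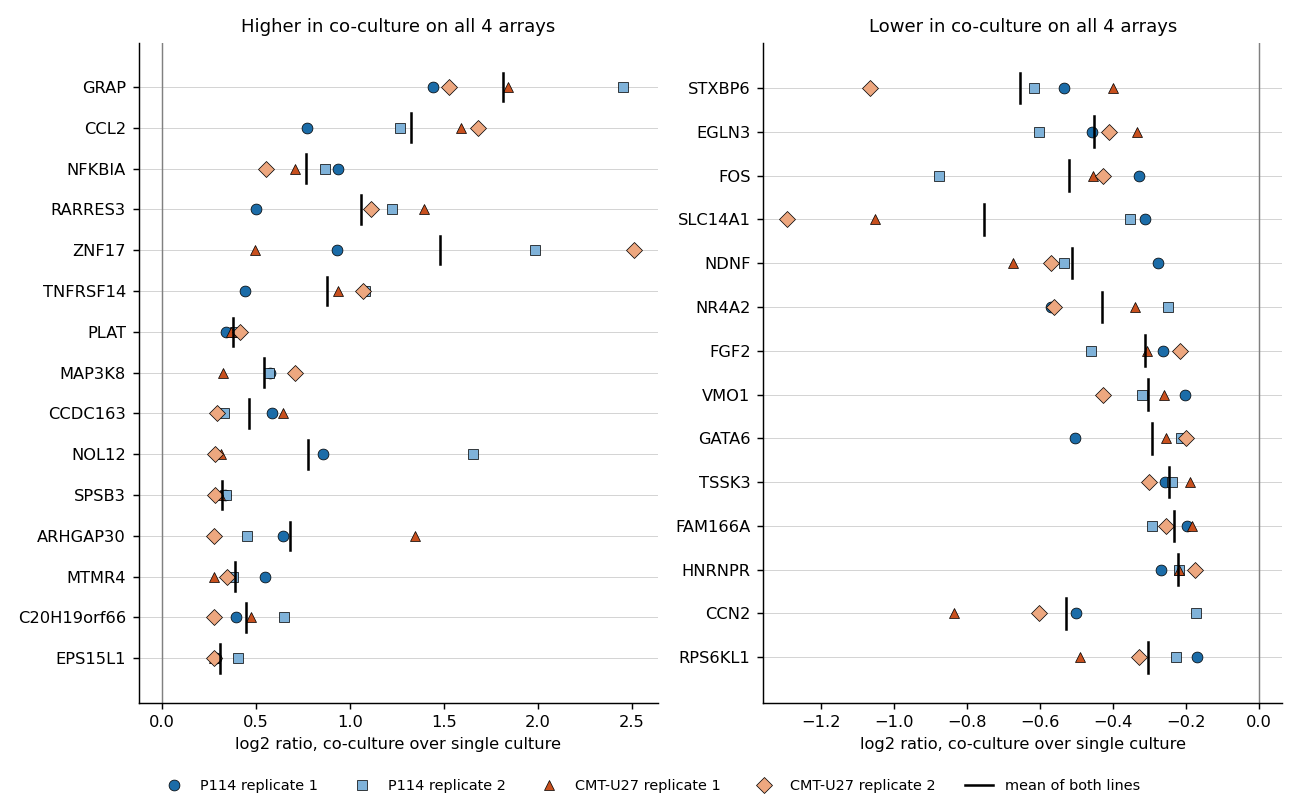
Log2 ratio of co-culture over single culture (x axis) of the genes reported from the 15 higher and 15 lower (y axis) on each of 4 arrays, 1 symbol per array, with a bar at the mean of both lines. Every symbol of a gene lies on one side of 0 because the genes were chosen so, and the spread over arrays is widest for ZNF17, NOL12 and ARHGAP30.

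The lower side held FOS, NR4A2 and CCN2, genes known for early responses to stimuli, beside genes of other functions. FOS, the AP-1 subunit induced within minutes of growth factor stimulation, read -0.33 and -0.88 in P114 and -0.45 and -0.43 in CMT-U27. All arrays were below 0, with P114 replicate 2 the lowest. The mean was -0.52 ± 0.114 (SE) at chr8:48334037-48334096, and did not pass (limma, Benjamini-Hochberg adjusted p = 1.00).

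CCN2, a secreted matrix-associated protein and a classical target of the YAP co-activator, read -0.50, -0.17, -0.84 and -0.60, a mean of -0.53. A second CCN2 probe on the same strand read -0.36, -0.31, -0.56 and -0.49. Both probes put CMT-U27 below P114 on average. NR4A2, an early-induced orphan nuclear receptor, read -0.57, -0.25, -0.34 and -0.56. Its other tested probe read -0.29, -0.999, -0.22 and 0.92, so the probes disagreed on CMT-U27 replicate 2. FGF2, a fibroblast growth factor, read -0.26, -0.46, -0.31 and -0.22, with all arrays within a narrow range.

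EGLN3, the oxygen-dependent prolyl hydroxylase that marks hypoxia-inducible factors for breakdown, had a mean of -0.45 with readings from -0.60 to -0.34. Its other probe read -0.16, 0.77, 0.24 and -0.36, so the probes disagreed in direction. SLC14A1, a urea transporter, was lower in CMT-U27 (-1.05 and -1.29) than in P114 (-0.31 and -0.35). NDNF, a secreted neurotrophic factor, read -0.28, -0.53, -0.67 and -0.57, and its other probe was below 0 on each array as well. STXBP6, which binds SNARE proteins, read -0.53, -0.62, -0.40 and -1.06.

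Further lower genes were GATA6, a transcription factor, HNRNPR, an RNA-binding protein, VMO1, TSSK3, FAM166A and RPS6KL1, with means from -0.30 to -0.22. HNRNPR was the brightest of the 15 and read -0.27, -0.22, -0.22 and -0.18. A second HNRNPR probe had a mean of -0.19 and the third, at 0.31, -0.72, -0.06 and 0.37, had no common sign. Of these 15, 12 shrank by over 1.5 times with normexp and loess, EGLN3 to -0.17, SLC14A1 to -0.10 and STXBP6 to -0.10, while FOS at -0.42, CCN2 at -0.40 and HNRNPR at -0.15 moved less. With median centring 11 of the 15 lower genes and 7 of the 15 higher genes no longer shared a sign on every array. When the centring used the tested probes alone, a choice made after seeing the data, it was 4 of the lower genes and 11 of the higher genes, GRAP and PLAT among the latter.

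Genes with several probes gave a further look that ranking by the brightest probe had not used. This listing was drawn up after the values were seen. Of 3936 genes with at least 2 tested probes, 48 had every probe higher on every array (1.22%) and 18 had every probe lower (0.457%). Another 18 had some probes higher and some lower throughout. With every reading beyond 0.2, NFKBIA and PLAT were the only 2 genes left on the higher side and none was left on the lower side. PSMB9, an immunoproteasome subunit, came next at a smallest reading of 0.19, with probes that share 48 of 60 bases, followed by CCN2 on the lower side at 0.17.

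FN1, fibronectin, a main component of the extracellular matrix, had 4 of 5 probes higher on all arrays. Its brightest probe, at chr37:22457191-22457250 on the minus strand, read 0.18 and 0.09 in P114 and 0.76 and 0.55 in CMT-U27. The means of the 5 probes ran from 0.16 to 0.56, and the dimmest probe was below 0 on CMT-U27 replicate 2.

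**Figure D4:**
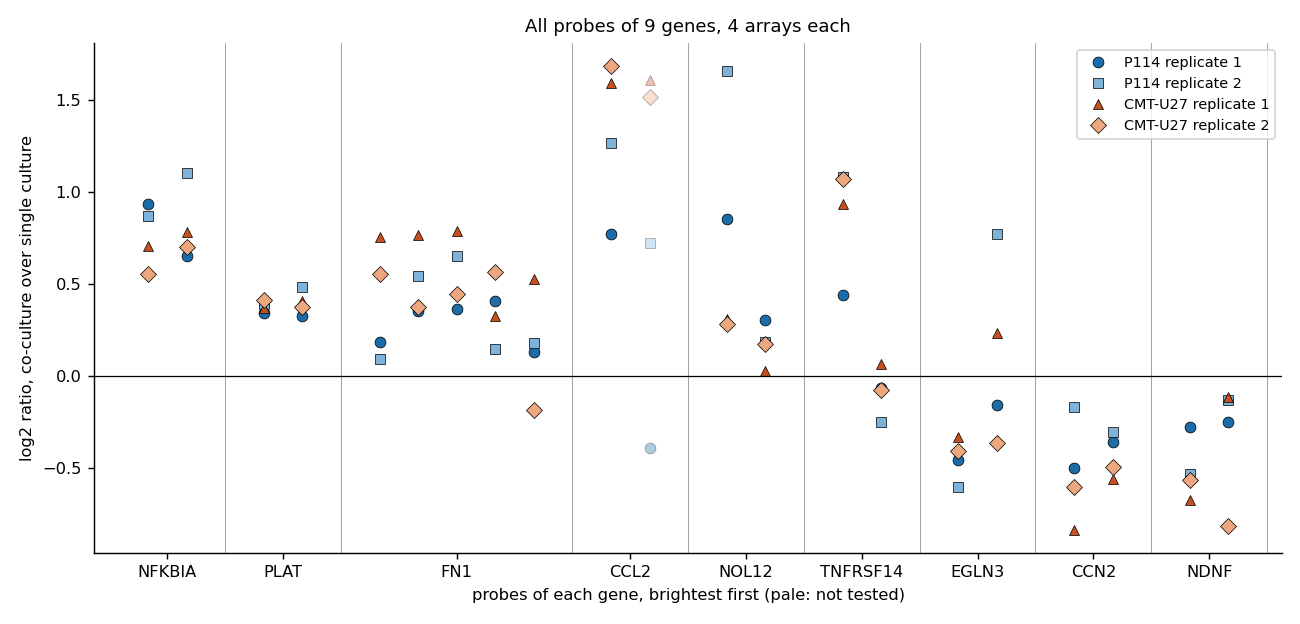
Log2 ratio of co-culture over single culture (y axis) on each of 4 arrays for every probe of 9 genes (x axis), with probes that were not tested in pale symbols. Probes of NFKBIA, PLAT, FN1 and CCN2 lie mostly together, while those of TNFRSF14 and EGLN3 lie on both sides of 0.

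NF-kB targets were more often higher in co-culture than lower. Of 23 tested members, 8 were higher on all 4 arrays (34.8%, against 7.42% of all genes) and 0 were lower, and the list median was 0.22 against 0.01. The lists were chosen with results of these data known, so these counts are not independent evidence of a direction. None of the 23 passed (limma, Benjamini-Hochberg adjusted p of 0.561 or more). At an unadjusted p under 0.05 there were 9 higher and 1 lower, against 249 and 101 of all 9835 genes.

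Among its transcription factors, NFKB2, which gives the p52 subunit, read 0.77, 0.26, 0.51 and 0.41. RELB, the partner of p52, read 0.24, 0.41, 0.18 and 0.04, and NFKB1, which gives p50, read 0.31, 0.02, 0.16 and 0.29. A second NFKB2 probe read 0.82, -0.29, 0.42 and 0.04, below 0 on P114 replicate 2, and a second NFKB1 probe had a mean of 0.03. Of the 8 higher members 3 had several tested probes, and only NFKBIA had all of them higher on every array. IRF1, shared by NF-kB and interferon signalling, stood at 0.39 and 0.21 in P114 and at 0.85 and 0.74 in CMT-U27. BIRC3, an inhibitor of apoptosis, showed the same order of lines at 0.18, 0.19, 0.63 and 0.50.

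CXCL16, a membrane-bound chemokine, went the other way round with 0.92 and 0.53 in P114 against 0.31 and 0.20 in CMT-U27. By array the list median was 0.18, 0.04, 0.34 and 0.41, lowest on P114 replicate 2. The list was thus nearer to 0 in P114 (median of line means 0.10) than in CMT-U27 (0.26), and 4 members were lower on both P114 arrays and higher on both CMT-U27 arrays (17.4%, against 3.96% of all genes). TNFAIP3, IL6, IL1A, IL1B, CCL20 and CCL5 had no tested probe. With normexp and loess 10 members were higher and 1 lower, against 12.3% and 2.86% of all genes. The means of IRF1 and NFKB2 then shrank from 0.55 to 0.25 and from 0.49 to 0.30. With normexp and median centring 12 members were higher and 2 lower, against 37.9% and 4.05% of all genes.

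Antigen presentation genes all lay above 0 on average. All 16 tested members had a mean above 0, against 5381 of all 9835 genes. Of the 16, 9 were higher on every array (56.2%, against 7.42% of all genes) and 0 were lower, and the median was 0.22. With normexp and loess the higher count was 7 of 16, beside 12.3% of all genes, and the median was 0.155. With normexp and median centring 8 were higher and 1 lower, beside 37.9% and 4.05% of all genes. B2M, the invariant chain of MHC class I, read 0.26, 0.18, 0.30 and 0.11 by its brightest probe. Of its other 3 tested probes 1 was above 0 on every array, 1 was just below 0 on P114 replicate 2, and 1, placed by the files on chr2 rather than chr30, had a mean of -0.11. DLA88, a class I heavy chain of the dog, read 0.38, 0.20, 0.36 and 0.33, and DLA-12 and DLA-64, close relatives of it whose probes may share transcripts, were also higher throughout by their brightest probes. Of the 9 members 8 had several tested probes, and in 3 of these, TAP2, PSMB9 and DLA-DMB, every probe was higher on every array.

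TAP2, which carries peptides into the endoplasmic reticulum, had the narrowest range of them at 0.22, 0.17, 0.24 and 0.25. All 3 of its tested probes were above 0 on every array. Those placed from chr12:2407746 and chr12:2407747 overlap, so they are near repeats of 1 measurement. PSMB9 read 0.19, 0.27, 0.43 and 0.43. DLA-DMB, which helps load class II molecules, read 0.24, 0.07, 0.83 and 0.40, and RFX5, a regulator of MHC promoters, had a mean of 0.14 by one probe and of -0.49 by the other. CALR, a chaperone of the loading complex, stood at 0.08 and turned to -0.02 with normexp and loess. The class II genes DLA-DRA, CD74 and CIITA, high in macrophages, had no tested probe, nor had PSMB8.

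The measurable macrophage markers had no common direction, and their part in the values of these lists was not tested. Of 19 markers on the array 2 had a tested probe, CD14 and CD68, and neither had the same sign on all 4 arrays. CD14, the lipopolysaccharide co-receptor, read 0.36, -0.07, 0.04 and -0.00. The summed processed signal of all 19 markers in co-culture was 0.955 times that of single culture on P114 replicate 1, 0.852 times on P114 replicate 2, 1.14 times on CMT-U27 replicate 1 and 1.01 times on CMT-U27 replicate 2. Well above background in co-culture and single culture were 19 and 19 markers on P114 replicate 1, 4 and 4 on P114 replicate 2, 5 and 3 on CMT-U27 replicate 1, and 5 and 4 on CMT-U27 replicate 2. CSF1R and CD163, defining macrophage markers, had no tested probe.

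Interferon-induced genes were mixed. Of 17 tested members 6 were higher on all arrays (35.3%, against 7.42% of all genes) and 1 was lower (5.88%, against 4.82%). The list median was 0.09, against 0.01 for all genes. ISG20, an exonuclease of viral RNA, read 0.58, 0.91, 0.44 and 0.13, and IFI35 read 0.07, 0.89, 0.67 and 0.42. DTX3L, a ubiquitin ligase, had ratios from 0.03 to 0.28. Its partner PARP9 was the lower member, at -1.84, -0.19, -0.16 and -0.03, a mean of -0.55 that P114 replicate 1 dominated. OAS1 and IFI44L were higher throughout with means near 0.21. Under normexp and loess 8 members were higher and 1 lower, beside 12.3% and 2.86% of all genes. The means then shrank from 0.51 to 0.21 for ISG20 and from 0.51 to 0.23 for IFI35. With normexp and median centring 8 members were higher and 1 lower, beside 37.9% and 4.05% of all genes. The list median was then 0.48, against 0.51 for all tested probes.

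Cell cycle genes were mostly above 0, with larger medians in P114, a difference that was not tested for the list. Of 28 mitotic genes 26 had a mean above 0, against 5381 of all 9835 genes. On every array 7 were higher (25%, against 7.42% of all genes) and 0 were lower (against 4.82%). The list median was 0.24 in P114 and 0.04 in CMT-U27. PLK1, the kinase that drives entry into mitosis, read 0.61 and 0.37 in P114 and 0.37 and 0.09 in CMT-U27. BUB1, a spindle checkpoint kinase, read 0.28, 0.29, 0.15 and 0.04, and CCNF read 0.71, 0.30, 0.15 and 0.06. BUB1 and CCNF were higher on both P114 arrays than on either CMT-U27 array, and the PLK1 readings of the lines overlapped.

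Replication genes followed the same order of lines, with 31 of 34 means above 0. On all arrays 6 members were higher (17.6%, against 7.42% of all genes) and POLA1 was the 1 lower (2.94%, against 4.82%). Their median was 0.17 in P114 and 0.02 in CMT-U27. POLE, the leading-strand polymerase, read 0.65, 0.26, 0.26 and 0.20. CHAF1A, a histone chaperone at the fork, read 0.43, 0.48, 0.26 and 0.14, and MCM5, a helicase subunit, read 0.69, 0.28, 0.20 and 0.03. Counts of higher members under normexp and loess were 13 of 28 for mitosis and 15 of 34 for replication, beside 12.3% of all genes. Under normexp and median centring these counts were 23 of 28 and 28 of 34, beside 37.9% of all genes. MKI67 had no tested probe, and none of the cell cycle members passed (limma, Benjamini-Hochberg adjusted p = 1.00).

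**Figure D5:**
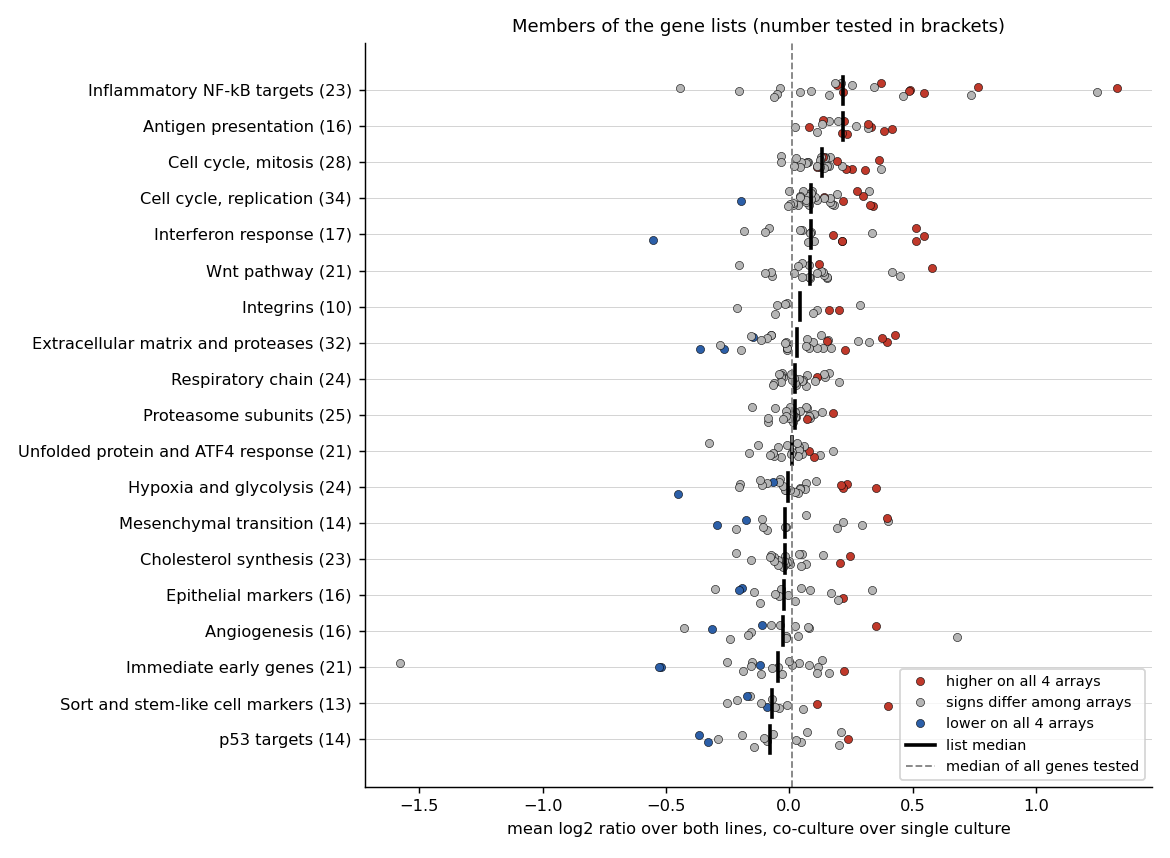
Mean log2 ratio of both lines (x axis) of each tested member, 1 point per gene, for the lists with at least 10 tested members (y axis), with the list median as a bar and the median of all 9835 genes (0.01) as a dashed line. Medians of the NF-kB and antigen presentation lists lie at 0.22, the highest, and those of most other lists lie near the dashed line.

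Matrix and protease genes showed no common direction. Of 32 tested members 5 were higher and 3 lower on all arrays (15.6% and 9.38%, against 7.42% and 4.82% of all genes). The list median was 0.03. MMP13, a collagenase, read 0.42, 0.72, 0.20 and 0.36 but shrank to a mean of 0.07 with normexp and loess, and COL4A1, a basement membrane collagen, read 0.35, 0.17, 0.22 and 0.16. TIMP3, an inhibitor of matrix metalloproteases, was among the lower ones at -0.68 and -0.45 in P114 and -0.23 and -0.08 in CMT-U27, and 3 of its 4 tested probes were lower on all arrays. LOX, a collagen cross-linking oxidase, and ADAMTS1, a secreted protease, had means of -0.15 and -0.26. The integrins ITGB3 and ITGAV, which form a receptor for fibronectin and vitronectin, had means of 0.16 and 0.20 by their brightest probes. The other ITGB3 probe had a mean of -0.16, and 1 of 3 tested ITGAV probes was above 0 on every array.

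Of the markers used for the sort, EPCAM and CD44 had tested probes, and by the brightest neither had the same sign on all 4 arrays. EPCAM, an epithelial adhesion protein, was well above background in both channels of all 4 arrays and read -0.16, -0.00, -0.07 and 0.06, while 1 of its 3 tested probes was below 0 on all arrays with a mean of -0.12. CD44, the hyaluronan receptor, read 0.36, -0.36, 0.04 and -0.06, with the P114 arrays on opposite sides of 0. Of 13 tested genes of the sort and stem-like list, CXCR4 and SOX2 were higher on all arrays and SOX9 and KLF4 lower. Either pair was 15.4% of the list, against 7.42% higher and 4.82% lower of all genes. The list median was -0.07. CXCR4, the receptor of CXCL12, read 1.06 on P114 replicate 1 and 0.16, 0.32 and 0.06 on the others, so that 1 array made most of its mean of 0.40. Without that array it was 0.18, and with normexp and loess 0.18. The other tested CXCR4 probe read -0.22, 0.42, 0.16 and 0.11, below 0 on P114 replicate 1. SOX9, a progenitor factor, had a mean of -0.17. POU5F1, KIT, LGR5, ABCG2, ALDH1A1 and ALDH1A3 had no tested probe.

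Epithelial and mesenchymal lists had medians of -0.02 and -0.02. KRT18, a luminal keratin, read -0.24, -0.26, -0.13 and -0.20, and TGFBR2, the type II receptor of TGF-beta, read -0.31, -0.50, -0.24 and -0.13, with 1 of its 3 tested probes lower on all arrays. Of 21 immediate early genes, 3 were lower on all arrays (FOS, CCN2 and JUN) and 1 higher (NR4A1). These were 14.3% and 4.76%, against 4.82% and 7.42% of all genes, and the list median was -0.05. Among 14 p53 targets, MDM2, the ligase that degrades p53, read -0.75, -0.37, -0.10 and -0.24, SESN1 had a mean of -0.33 that became -0.16 without P114 replicate 1, and PLK3 had a mean of 0.24. The MDM2 mean of -0.37 was -0.23 with normexp and loess.

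The Wnt list had 17 of 21 means above 0, against 5381 of 9835 for all genes, and a median of 0.09. Of its members 2, AXIN1 and WNT7A, were higher on all arrays (9.52%, against 7.42% of all genes). The other tested AXIN1 probe was below 0 on CMT-U27 replicate 2, at -0.19. WNT7A, a secreted ligand, read 0.46, 0.69, 1.13 and 0.03, with each culture well above background on 1 of 2 CMT-U27 arrays. Its mean of 0.58 became 0.27 with normexp and loess, where CMT-U27 replicate 2 read -0.03. Hypoxia and glycolysis genes numbered 4 higher and 2 lower of 24 (16.7% and 8.33%, against 7.42% and 4.82% of all genes). Among them PFKP, a phosphofructokinase, read 0.56, 0.16, 0.38 and 0.31. ANGPTL4, a secreted regulator of lipoprotein lipase in the angiogenesis list, read 0.56, 0.42, 0.25 and 0.17. The 25 proteasome subunits had 2 higher (8%) and 0 lower members and a median of 0.02. Of the 24 respiratory chain genes 1 was higher (4.17%) and 0 were lower. The shares over all genes were 7.42% higher and 4.82% lower.

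Several genes had large ratios in opposite directions in the lines. Each had a mean over both lines but no common sign on the 4 arrays. SAA1, an acute-phase apolipoprotein, read -0.57 and -1.24 in P114 and 3.29 and 3.52 in CMT-U27, so its mean of 1.25 describes neither line. Of its other 3 tested probes 2 showed the same split and 1 had a mean of 0.17 with all arrays above 0. INSIG1, which retains SREBP in the endoplasmic reticulum, read -0.59, -0.52, 0.32 and 0.17, and HMGCS1, an enzyme of cholesterol synthesis, read -0.84, -0.05, 0.44 and 0.27. Of the 23 cholesterol synthesis genes, 8 were lower on both P114 arrays and higher on both CMT-U27 arrays (34.8%, against 3.96% of all genes), and the list median was -0.11 in P114 and 0.13 in CMT-U27. In the limma test of CMT-U27 minus P114, 0 of 25654 probes (0%) passed after Benjamini-Hochberg adjustment (smallest adjusted p = 0.239), and 698 had an unadjusted p under 0.05. The number passing the adjusted test was 0 without P114 replicate 1, 29 without P114 replicate 2, 34 without CMT-U27 replicate 1 and 4 without CMT-U27 replicate 2.

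Other inflammatory and matrix genes split within or between lines as well. IL8, a neutrophil chemokine, read -0.45 on P114 replicate 1 and 0.53, 0.57 and 0.72 on the other arrays. PTGS2, the inducible cyclooxygenase, read -1.22 and -0.65 in P114 and 0.34 and -0.24 in CMT-U27. PLAU, urokinase, read 0.79 and 0.66 in P114 and 0.06 and -0.21 in CMT-U27. PLAT, the other plasminogen activator, was on the higher side in both. H19, a long noncoding RNA, read -1.56 and -2.27 in P114 and 1.18 and -0.19 in CMT-U27. PTGS2 and H19 were well above background on 1 of 2 CMT-U27 arrays in each culture. VEGFA, the main angiogenic growth factor, read 0.20, -0.07, -0.02 and -0.17 by its bright probe, while a dim probe had a mean of 0.45.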

How the data were processed

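RNA was measured on 4 two-colour Agilent arrays (design 021193). Per the file headers, Feature Extraction 10.10.1.1 subtracted background and normalised dyes (linear and LOWESS). Version 10.7.3.1 is given in the processing notes of the submitters. The authors deposited log10 ratios of Cy5 over Cy3, spot intensity values and quality flags of 0 or 1. The same log10 ratios make up the deposited series table.

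Here log10 ratios were converted to log2 and turned by the dye labels. Control spots (1417 of 45220) and outlier-marked spots were left out and spots of a probe averaged. Of 25690 probes passing the filter, 36 were lost to marked spots. No spot was saturated. limma 3.58.1 (R 4.3.3, data.table version 1.17.8) fitted a coefficient per line and a dye term (1 residual and 3.76 prior degrees of freedom), with Benjamini-Hochberg adjustment over all tested probes at 0.05, tested on simulated data. Fits without an array had no dye term, so dye stays in the ratio of the line left with 1 array.

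Coordinates are those of the files (CanFam3.1). Symbols are those of the files, 520 of them updated by gene ID through RefSeq gene names (assembly UU_Cfam_GSD_1.0), which held 12951 of the 14039 symbols. A gene was shown by its brightest tested probe. Named genes were the 15 higher and 15 lower with the largest smallest ratio, up to 4 members of each of 23 lists, and a set of fixed names. The smallest lower ratio kept was -0.17 (RPS6KL1) and the next -0.1683 (PCDH7). A gene among the lower 15 is not reported here. Genes named outside this rule were chosen after their values were seen. Members and lists were chosen with earlier results of these data known. Alternatives tried were background correction (normexp with an offset of 50), normalisation, filters, the fit, the gene's probe and leaving out each array. Figures were drawn with matplotlib 3.10.9 (Python 3.11.15).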

Additional observations from a re-analysis of the deposited data

Results flagged for a closer look

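SAA1 had a CMT-U27 minus P114 difference of 4.31 on the log2 scale, from a mean of -0.91 in P114 and 3.40 in CMT-U27 (limma, unadjusted p = 9.32e-06, Benjamini-Hochberg adjusted p = 0.239). It is listed because both arrays of one line lay on the opposite side of 0 from both arrays of the other. INSIG1 met the same condition with a difference of 0.81, from -0.56 in P114 and 0.25 in CMT-U27 (limma, unadjusted p = 0.00979, Benjamini-Hochberg adjusted p = 1.00). HMGCS1 met it with 0.80, from -0.45 in P114 and 0.36 in CMT-U27 (limma, unadjusted p = 0.0221, Benjamini-Hochberg adjusted p = 1.00). None of these differences passed the adjusted test, and their causes were not tested.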

How the results depend on the processing

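With 2 arrays per line, the shared effect moved with the normalisation. With normexp and loess, 2988 probes (11.6%) were higher and 726 (2.83%) lower on all 4 arrays, 0 passed limma's Benjamini-Hochberg threshold for the mean (1639 unadjusted), and CALR turned to -0.016 and CD44 to 0.027. Median centring after normexp moved the median of all tested probes to 0.51, and 16046 probes passed for the mean (16013 higher, 33 lower) and 11545 for the line difference, with 9460 higher on all arrays. It turned MAP3K8 (-0.069), CCDC163 (-0.043) and NR4A1 (-0.016) to lower. It turned to higher EGLN3 (0.066), FOS (0.40), NDNF (0.018), FGF2 (0.16), FAM166A (0.050), HNRNPR (0.70), CCN2 (0.37), SOX9 (0.74), KLF4 (0.34), KRT18 (0.74), KRT14 (0.77), TGFBR2 (0.61), FOXC2 (0.76), JUN (0.84), MDM2 (0.29), VEGFC (0.77), TIMP3 (0.57), INSIG1 (0.73), HMGCS1 (0.88), EPCAM (0.92), CD44 (0.62) and VEGFA (0.93). Centring over the tested probes, chosen after seeing the data, gave 16889 for the mean (8145 higher, 8744 lower), 4195 for the difference, and 5274 higher and 5348 lower on all arrays, and 29 of 94 named genes turned. The cause was not tested.

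For the line difference, 1 probe passed with loess and no background correction and 3 with both channels required well above background. For the mean, 0 passed with no dye term (727 unadjusted), a single coefficient (1230), no filter (1735) or both channels required (1015). Turning both P114 arrays left 880 higher probes. Leaving out 1 array gave 0 to 35 probes for the mean, 0 to 34 for the difference, and 2625 to 4175 higher and 2270 to 2911 lower on the 3 arrays left. HMGCS1 then ranged from -0.24 to 0.15, CD14 from -0.024 to 0.19, CD44 from -0.19 to 0.17 and VEGFA from -0.081 to 0.051, and their direction rests on single arrays. The median over a gene's probes gave 0.076 for HMGCS1 and 0.22 for VEGFA. No paired analysis was possible because the labels number no replicates, so that none can be matched across lines. Each array's ratio already sets co-culture against single culture. Low signal over background limits what can be read. Among the 15 higher and 15 lower genes, those that shrank by over 1.5 times with normexp and loess were the dimmer by median brightness. The offset of 50 that normexp added to both channels shrinks dim ratios by itself, so this shrinkage is no separate test of those genes.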

Other observations

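Probes without a gene symbol gave further ratios of the same sign on all 4 arrays, chosen by the same ranking and reported as values. A probe of the expressed sequence tag BU746204, with no position in the files, read 1.67 and 2.37 in P114. In CMT-U27 its single-culture signal was not well above background on either array. Co-culture was at least 2.10-fold higher there, with the bound set as for ZNF17. TC72438, at chr37:22461406-22461465 on the minus strand and so within the span of the FN1 probes, read 0.35, 0.50, 0.67 and 0.43. TC58636, at chr25:12318093-12318152 on the plus strand, read -0.58, -0.80, -0.77 and -0.58, the lowest mean (-0.68) among the lower probes without a symbol that were listed.

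A few genes not in any list had several probes that pointed one way throughout. MRPS27, a mitochondrial ribosome protein, had 3 probes with means from 0.29 to 0.34. Its probes placed from chr2:55269960 and chr2:55269979 overlap in position. PARP12, an interferon-inducible ADP-ribosyltransferase, had 2 probes with means of 0.24 and 0.24, and PI4KA, a phosphatidylinositol kinase, had 2 with means of 0.23 and 0.28.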
